A study of Mus musculus with 14 samples.

Results

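*Twist1*, *Twist2*, *Prrx1* and *Prrx2* were followed in promoter capture Hi-C (PCHi-C) of mouse cranial neural crest cells (CNCCs). In PCHi-C, fragments cut by HindIII are ligated to their neighbours in nuclear space, and ligation products with a promoter fragment, the bait, are pulled out and sequenced. The baits taken here were those holding a start site of 1 of the 4 genes, 4 of the 22171 baits in the lists. The 14 libraries, 2 per condition, came from 4 wild-type facial and pharyngeal territories at E10.5, namely the FNP (frontonasal process), the upper and lower jaw parts Mx (maxillary) and Md (mandibular) of the first arch, and PA2 (the second arch), from PA2 of E10.5 *Hoxa2*EGFP/EGFP embryos, which are *Hoxa2* knockouts, and from the forming pinna at E12.5 and E14.5. Wild-type cells were red cells of *Wnt1::Cre*;*ROSA*RFP embryos, in which the *Wnt1* promoter drives Cre in the neural crest before it migrates, and knockout cells were sorted by green fluorescence, so that sort marker and genotype cannot be told apart. Tissue was dissociated with trypsin at E10.5 and E12.5 and with papain at E14.5. PCHi-C measures no expression, so the labelled cell type could not be checked against marker genes.

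*Twist1* and *Twist2* encode basic helix-loop-helix (bHLH) factors that pair with E proteins and bind E-box sequences. *Prrx1* and *Prrx2* encode paired-type homeodomain factors. All 4 are textbook regulators of mesenchyme, and loss of a *TWIST1* copy in humans causes craniosynostosis. *Hdac9* and *Hdac4*, the large histone deacetylase genes beside *Twist1* and *Twist2*, are paralogs of each other, and *Hdac9* is known to carry *Twist1* enhancers within its body.

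On GRCm38, the bait of *Twist1* (ENSMUSG00000035799.6) was chr12:33955147-33960975, that of *Twist2* (ENSMUSG00000007805.4) chr1:91798516-91803624, that of *Prrx1* (ENSMUSG00000026586.16) chr1:163292847-163320894 and that of *Prrx2* (ENSMUSG00000039476.13) chr2:30828803-30837098. The *Twist1* bait held no other annotated start site. The *Prrx2* bait also held the start site of *Asb6*, so contacts of these 2 genes cannot be told apart, and it held the start site of only 1 of the 4 annotated *Prrx2* transcripts. The *Prrx1* bait was 28048 bp long. The *Twist2* and *Prrx1* baits shared their fragments with noncoding genes only.

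Each contact was read as a CHiCAGO score, which rises as a pair of fragments is joined more often than its distance and the background of its library predict. The lowest score in each list was 5, and a pair that a library did not list was given 0, which stands for any lower score. The lists held between 119370 and 499756 pairs per library and no read counts, so the depth is unknown. In Md replicate 1 and E12.5 pinna replicate 2, whose file names say that they were merged without saying from what, 46.5% and 62.7% of the listed pairs linked 2 chromosomes, while this share lay between 2.64% and 5.61% in the remaining 12 libraries. Both knockout libraries listed the fewest pairs, 119370 and 128042. On their own chromosomes, the 4 baits were listed with 260 distinct fragments in at least 1 library, 63 for *Twist1*, 61 for *Twist2*, 87 for *Prrx1* and 49 for *Prrx2*. Most were seen in few libraries, and 107 of the 260 were listed in at least 4 and could be tested. The distance of a fragment below is that of its nearer edge from the start site.

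**Figure D1:**
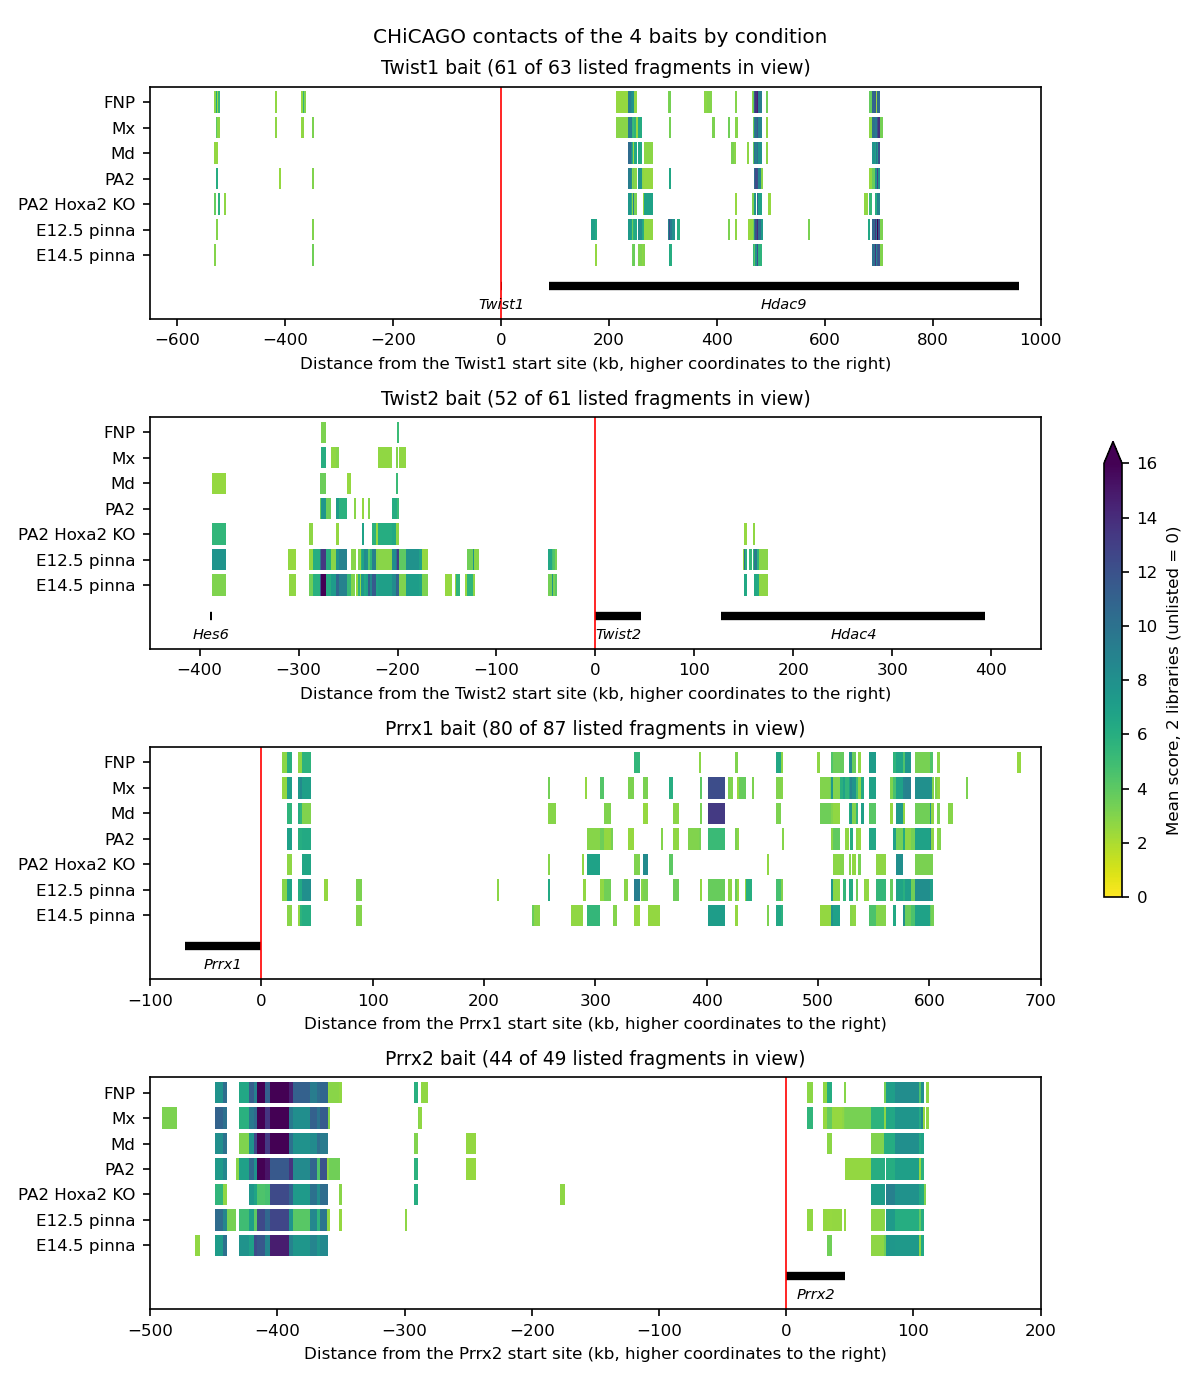
Mean CHiCAGO score of each listed fragment (colour, mean of 2 libraries, unlisted as 0) in the 7 conditions (rows) against the distance from the start site in kb, with gene bodies as black bars and narrow fragments widened to stay visible. *Twist1* contacts gather within *Hdac9* in all 7 conditions, most *Twist2* contacts are seen in the pinna, and the strongest *Prrx2* contacts lie upstream in all 7.

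*Twist1* reached into *Hdac9*. Of its 63 fragments, 48 lay in the 869.5 kb body of this gene (chr12:34047580-34917095), 50 lay downstream of *Twist1* and 13 upstream. Joining fragments that were listed in at least 7 libraries and lay within 25 kb of each other gave 4 stretches in *Hdac9* and 1 upstream fragment that is itself a bait and holds *Twistnb*, 525 kb away. The stretches lay 236 to 261 kb, 313 kb, 467 to 483 kb and 688 to 703 kb from the *Twist1* start site. In the stretch at 467 to 483 kb, between 3 and 5 of its 5 fragments were listed in each of the 14 libraries, and in the stretch at 688 to 703 kb, between 3 and 5 of its 6 fragments.

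The *Twist1* fragment with the highest mean score, chr12:34431956-34434742, lay 474 kb downstream and overlapped an *Hdac9* exon. Its score was 14.91 and 14.34 in replicates 1 and 2 of FNP, 9.80 and 13.08 in Mx, 9.87 and 10.27 in Md, 12.28 and 11.97 in PA2, 11.60 and 10.23 in the knockout, 15.20 and 12.53 in the E12.5 pinna, and 9.35 and 14.53 in the E14.5 pinna. Both FNP libraries lay above those of Mx, Md, PA2 and the knockout, while each pinna stage overlapped FNP. The pair did not pass the threshold described below in any comparison, and no library was without it. The next fragments by mean score, chr12:34655662-34656527 (mean 11.6) and chr12:34656528-34660307 (mean 11.0), lay 698 and 699 kb away in an intron, and chr12:34652428-34654546 (mean 9.81) lay beside them. All 3 were listed in all 14 libraries, with scores between 5.51 and 18.45.

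The contact strength of *Twist1* with *Hdac9* was the mean score over all 303 fragments of the gene body. It was 0.580 and 0.441 in FNP, 0.561 and 0.623 in Mx, 0.552 and 0.425 in Md, 0.549 and 0.424 in PA2, 0.326 and 0.417 in the knockout, 0.794 and 0.931 in E12.5 pinna, and 0.270 and 0.550 in E14.5 pinna. Both E12.5 pinna libraries lay above all others and E14.5 pinna replicate 1 was the lowest. At E10.5 in the wild type, both Mx libraries lay above those of Md and PA2, and FNP overlapped each of these conditions. PA2 differed from FNP, Mx and Md by -0.0435 (exact permutation test of 2 against 6 libraries, two-sided, p = 0.464, with 0.0357 the lowest p that so few libraries can give). The 4 pinna libraries, with a mean of 0.636 ± 0.290 (SD, n = 4), differed from the 8 wild-type E10.5 libraries, with 0.519 ± 0.0777 (SD, n = 8), by 0.117 (two-sided exact permutation test, p = 0.285). Without E14.5 pinna replicate 1, which listed 11 fragments in *Hdac9* against 18 in replicate 2, the pinna exceeded E10.5 by 0.239 (exact test, p = 0.0303), whereas without E12.5 pinna replicate 2 it did so by 0.0186 (exact test, p = 0.788).

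The other baits near *Twist1* were listed less with *Hdac9*. Over the 14 libraries the strength was 0.532 ± 0.175 (SD, n = 14) from the *Twist1* bait, 0.200 ± 0.0582 (SD, n = 14) from the *Twistnb* bait and 0.015 ± 0.0177 (SD, n = 14) from the bait of *Ferd3l*, a bHLH gene between them. The bait with an *Hdac9* start site, inside the body itself, had no listed fragment there in any library. These neighbours were chosen after their values were seen, and baits differ in how well they are captured.

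**Figure D2:**
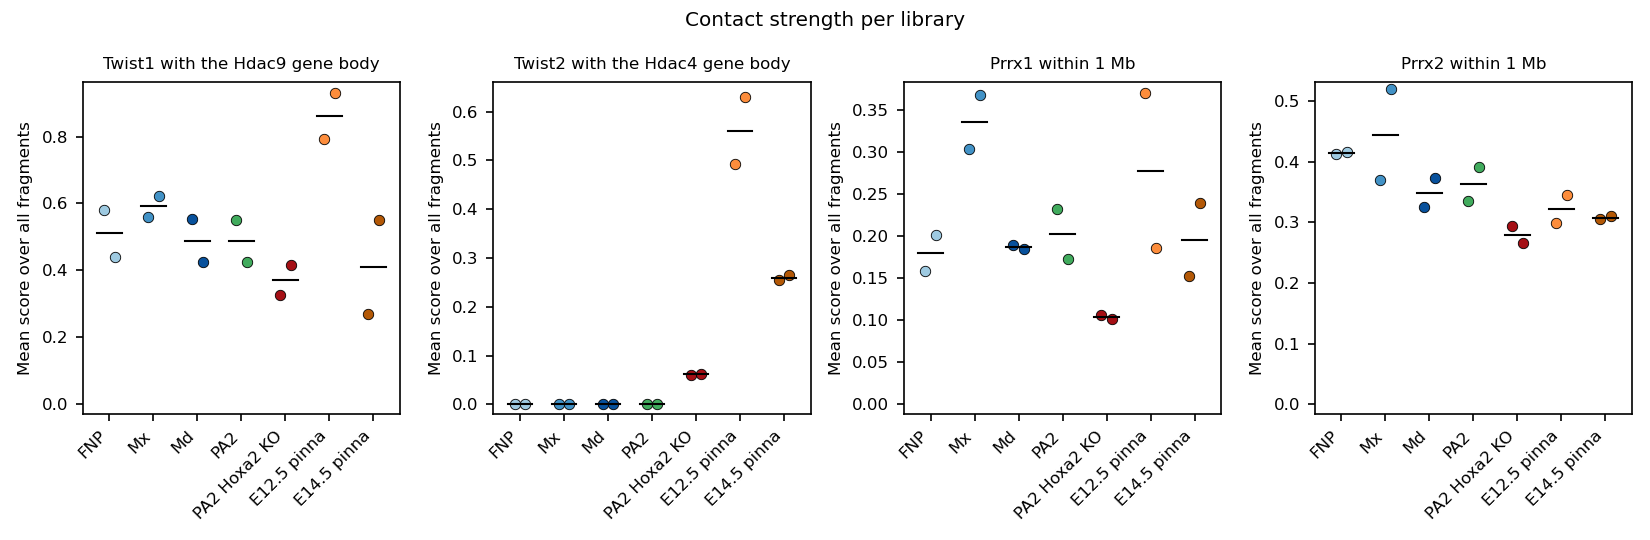
Contact strength (mean CHiCAGO score over all fragments of the region, unlisted as 0) per library, with a point for each of the 2 libraries of a condition and a line at their mean. E12.5 pinna is highest for *Twist1* with *Hdac9*, the wild-type E10.5 libraries are all at 0 for *Twist2* with *Hdac4*, and the *Prrx1* and *Prrx2* panels show the means of the scores within 1 Mb.

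Changes of single *Twist1* contacts were tested by limma over all 161898 pairs of the genome that were listed in at least 4 libraries, on asinh(score), the inverse hyperbolic sine, with Benjamini-Hochberg adjustment over all pairs and a threshold of 0.05. Between pinna and wild-type E10.5, 4.22% of all pairs passed, 1.53% higher in the pinna and 2.69% lower. Of the 27 *Twist1* pairs tested, 1 was higher and 2 were lower. Stage and tissue change together in this comparison and cannot be told apart.

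The 2 lower contacts were neighbours in an *Hdac9* intron, 236 and 242 kb downstream of *Twist1*. The fragment chr12:34200132-34200497 scored 7.65 and 8.68 in FNP, 8.88 and 9.95 in Mx, 8.74 and 9.03 in Md, 7.83 and 8.46 in PA2, 5.64 and 5.91 in the knockout, 5.16 and 8.67 in E12.5 pinna, and was unlisted in both E14.5 libraries. Only the E14.5 libraries were without it, and the E12.5 libraries overlapped E10.5. Its larger neighbour chr12:34193766-34200131 was likewise listed in the 12 other libraries, with scores between 7.19 and 11.29, and in neither E14.5 library. Over both pinna stages, the contact differed from wild-type E10.5 by -1.55 (SE 0.190, limma adjusted p = 0.00132) at the smaller fragment and by -1.59 (SE 0.170, limma adjusted p = 0.000544) at the larger one, on the asinh scale. Between the stages, E14.5 differed from E12.5 by -2.60 (SE 0.310, limma adjusted p = 0.00515) at the smaller fragment and by -2.70 (SE 0.278, limma adjusted p = 0.00324) at the larger one. In this comparison 0.901% of all pairs passed, 0.42% lower at E14.5. Stage and the enzyme used for dissociation cannot be told apart here. When each library was cut to the same number of top pairs, the smaller fragment no longer passed between the stages, and an unlisted pair only says that its score was below 5.

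Taken as a whole, the stretch at 236 to 261 kb was also lower at E14.5, but not each of its fragments was. Of its 8 fragments, between 3 and 7 were listed in each wild-type E10.5 library, 6 and 7 in the E12.5 libraries, and 0 and 3 in those of E14.5, and the mean score over the stretch was 5.56 in wild-type E10.5, 5.87 at E12.5 and 1.27 at E14.5. At 688 to 703 kb, by contrast, the mean score was 7.69 in wild-type E10.5, 10.7 at E12.5 and 9.28 at E14.5, with 5 fragments listed in each of the 4 pinna libraries. These stretches were drawn from the same scores, so the values are a description.

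One *Twist1* contact was listed in all 4 pinna libraries and in no other library. Further fragments listed in the pinna alone were in fewer pinna libraries and could not be tested. The fragment chr12:34270769-34274460, in an *Hdac9* intron 313 kb downstream, scored 10.23 and 8.86 in E12.5 pinna and 6.48 and 5.54 in E14.5 pinna, and was unlisted in the other 10 libraries. The difference from wild-type E10.5 was 2.72 (SE 0.284, limma adjusted p = 0.000544). With a listing in exactly 4 libraries, all pinna, this pair could enter the test only by differing. The abutting fragment chr12:34270323-34270768 was listed in all 4 pinna libraries, with mean scores of 12.2 at E12.5 and 6.29 at E14.5, and also in 4 of the 8 wild-type E10.5 libraries.

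In the knockout, the contact at 471 kb was not listed. The fragment chr12:34429077-34431955, which overlaps an *Hdac9* exon, scored 10.76 and 13.87 in wild-type PA2 and was unlisted in both knockout libraries, a fall of 3.20 on the asinh scale (SE 0.316, limma adjusted p = 0.000536). It was listed in all 12 wild-type libraries, with scores down to 5.89. Between knockout and wild-type PA2, 2.16% of all pairs passed, 1.8% lower in the knockout, and this was the only *Twist1* pair that did. The next fragment along, at 474 kb, kept scores of 11.60 and 10.23 in the knockout. The call was lost when scores below 10 were set to 0. The knockout libraries are those with the fewest listed pairs, and the part of this in the result was not tested.

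*Twist2* gained contacts in the pinna. Its bait was listed with 1 and 2 fragments in FNP, 3 and 4 in Mx, 3 and 5 in Md, 11 and 6 in PA2, 7 and 10 in the knockout, 34 and 45 in E12.5 pinna, and 36 and 41 in E14.5 pinna. The pinna libraries did not overlap the others. The means rose from 4.38 ± 3.11 (SD, n = 8) in wild-type E10.5 to 39 ± 4.97 (SD, n = 4) in the pinna. For a test over all baits, limma was run on log2(number of listed fragments + 1), centred per library, for the 10199 baits with a mean of at least 5 fragments. Over the 10 libraries outside the pinna, knockout included, *Twist2* had a mean of 5.2 and would have passed this filter as well. The 8 wild-type E10.5 libraries alone, with a mean of 4.38, would not have passed it.

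On this scale, the *Twist2* bait was higher in the pinna than in wild-type E10.5 by 3.09 (SE 0.230, limma adjusted p = 1.07e-06), a difference that ranked 5 among the 10199 baits. Of all baits, 16.8% passed in this comparison, 8.4% higher and 8.44% lower in the pinna. The call was kept with each library left out in turn. E12.5 pinna exceeded PA2 by 2.07 (SE 0.375, limma adjusted p = 0.0137), where 0.794% of all baits passed, 0.333% higher, and the call was lost without PA2 replicate 2 (adjusted p = 0.162 by limma) or without E12.5 pinna replicate 2 (adjusted p = 0.0577 by limma). PA2 exceeded FNP, Mx and Md by 1.41 (SE 0.306, limma adjusted p = 0.249), which missed the threshold. In that comparison 0% of the 10199 baits passed by limma, while 745 had an unadjusted p under 0.05. The PA2 libraries enter all 3 of these comparisons, which are therefore not independent of each other.

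**Figure D3:**
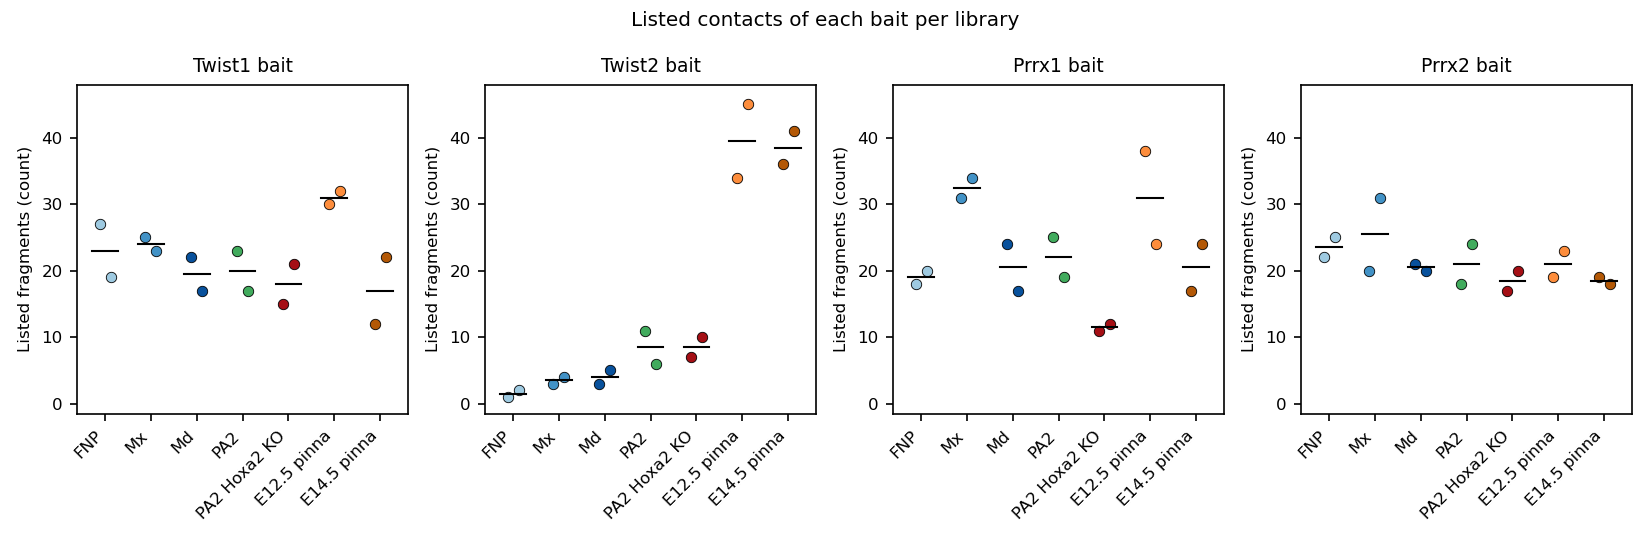
Number of fragments listed with each bait on its own chromosome, with a point for each of the 2 libraries of a condition and a line at their mean. The *Twist2* bait has between 34 and 45 listed fragments in the 4 pinna libraries and between 1 and 11 in the other 10, while the other baits overlap between pinna and E10.5.

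The 3 other baits overlapped between pinna and E10.5. *Twist1* was listed with between 12 and 32 fragments in the pinna and between 17 and 27 in wild-type E10.5, *Prrx1* with between 17 and 38 and between 17 and 34, and *Prrx2* with between 18 and 23 and between 18 and 31. Of the 24 differences of these 4 baits over the 6 comparisons, the 22 that missed the threshold had an adjusted p of at least 0.249 by limma. At E14.5, *Twist1* fell by 0.94 (SE 0.309) from E12.5, with an adjusted p = 0.334 by limma, when 12 and 22 fragments stood against 30 and 32. Of all baits, 0.245% passed there.

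By position, the *Twist2* gain lay mostly upstream, over the genes *Traf3ip1* and *Asb1* and the stretch between *Asb1* and *Twist2*. Of the 61 fragments, 45 were upstream and 16 downstream, and 26 could be tested, of which 16 were higher in the pinna and 0 lower, where 1.53% of all pairs were higher and 2.69% lower. Among these 16, 9 were listed in the 4 pinna libraries and in no others, and 14 in fewer than 4 libraries outside the pinna, so that these 14 reached the test only through the group in which they were high. For the 9, the unlisted libraries show no spread, so their SE and adjusted p also rest partly on the listing threshold. The remaining 2, chr1:91596031-91600729 and chr1:91601098-91603300, were listed in 4 and 5 libraries outside the pinna. The 16 scored between 5.08 and 14.44 in the pinna libraries.

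The highest *Twist2* score was in *Traf3ip1*, at chr1:91524312-91529349, 272 kb upstream. It was 0 and 6.35 in FNP, 5.73 and 6.30 in Mx, 0 and 7.24 in Md, 8.03 and 7.20 in PA2, 0 in both knockout libraries, 15.63 and 11.19 in E12.5 pinna, and 14.73 and 19.98 in E14.5 pinna. All 4 pinna libraries lay above all others, but the pair did not pass the threshold. Nearer to *Twist2*, chr1:91601098-91603300 at 198 kb scored between 7.26 and 14.44 in the pinna and at most 5.29 in wild-type E10.5 (difference 1.98, SE 0.444, limma adjusted p = 0.0351), and its call was lost without any 1 of the 12 wild-type libraries. The fragment chr1:91575327-91580433 at 221 kb had the largest difference of the 16 (3.02, SE 0.372, limma adjusted p = 0.00138), with scores between 8.68 and 12.58 in the pinna, 0 in all wild-type E10.5 libraries, and 5.36 and 6.20 in the knockout, and it is one of the 14. The fragment chr1:91538882-91542592, which is itself the *Asb1* bait, was listed in all 4 pinna libraries and in Mx replicate 1, both PA2 replicates and knockout replicate 1.

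The bait of *Hes6*, a bHLH repressor gene, lies 373 kb upstream of *Twist2* and was listed with the *Twist2* bait in 6 libraries. The score was 5.06 in Md replicate 2, 5.47 and 5.44 in the knockout replicates, 10.28 and 5.21 at E12.5, and 6.18 in E14.5 replicate 1. Of the 8 wild-type E10.5 libraries, only Md replicate 2 held it. The *Hes6* bait itself was listed with more fragments in the pinna than in wild-type E10.5, by 0.93 on the centred log2 scale (SE 0.246, limma adjusted p = 0.0175).

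Downstream, *Twist2* reached into *Hdac4* (chr1:91928779-92195699), as *Twist1* did into *Hdac9*. Over the 84 fragments of *Hdac4*, none of the 8 wild-type E10.5 libraries had a contact strength above 0. It was 0.0605 and 0.0632 in the knockout replicates, 0.492 and 0.630 in those of E12.5 pinna, and 0.254 and 0.264 in those of E14.5 pinna. Between 3 and 7 fragments of *Hdac4* were listed in each pinna library and 1 in each knockout library. The pinna mean was 0.410 ± 0.183 (SD, n = 4), and its difference from wild-type E10.5 had p = 0.00202, the lowest value that the exact two-sided test over 495 groupings can return. These groupings take single libraries as units, although each condition holds 2. The test is 1 of 8 such region tests, not adjusted for their number. Once scores below 10 were set to 0, a difference of 0.0703 was left (exact test, p = 0.333), and with libraries cut to the same number of top pairs it was 0.232 (exact test, p = 0.00202). PA2, FNP, Mx and Md were all at 0 and could not be compared.

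The 8 fragments of *Hdac4* listed in any library lay between 149 and 165 kb from *Twist2*, near the 3′ end of *Hdac4*, which is transcribed from the minus strand. The fragment with the highest mean score, chr1:91952954-91953456, lay in an intron and was listed in the 4 pinna libraries, at 8.46 and 11.57 in the E12.5 replicates, 5.12 and 7.64 in the E14.5 replicates, and 5.08 in knockout replicate 1 (difference from wild-type E10.5 2.76, SE 0.472, limma adjusted p = 0.012). This pair, too, reached the test only through the pinna, and it missed the threshold when libraries were cut to the same number of top pairs. The fragments chr1:91962186-91965587 and chr1:91965588-91966571 were listed in the 4 pinna libraries alone, with scores between 5.68 and 12.05 for the first and between 5.08 and 7.43 for the second. Other baits upstream also reached *Hdac4*. From the *Asb1* bait the strength was between 0.510 and 0.883 in the pinna and between 0.0692 and 0.362 in wild-type E10.5, and from the *Hes6* bait between 0.129 and 0.441 and between 0.0665 and 0.251.

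The short fragment unlisted with *Twist1* at E14.5 and the short one at which *Twist2* was higher in the pinna share sequence. For this reason their first 300 bases are shown, from the plus strand of GRCm38 (chr12:34200132-34200431 and chr1:91952954-91953253). Capitals mark the stretch that aligned best between the whole fragments.
Twist1 contact in Hdac9: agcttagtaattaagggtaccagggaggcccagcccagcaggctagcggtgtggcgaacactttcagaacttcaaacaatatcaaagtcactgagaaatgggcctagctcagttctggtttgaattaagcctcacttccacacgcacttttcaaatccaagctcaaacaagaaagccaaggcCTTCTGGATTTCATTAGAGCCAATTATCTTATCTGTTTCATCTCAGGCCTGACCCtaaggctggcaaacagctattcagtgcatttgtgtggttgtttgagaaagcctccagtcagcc
Twist2 contact in Hdac4: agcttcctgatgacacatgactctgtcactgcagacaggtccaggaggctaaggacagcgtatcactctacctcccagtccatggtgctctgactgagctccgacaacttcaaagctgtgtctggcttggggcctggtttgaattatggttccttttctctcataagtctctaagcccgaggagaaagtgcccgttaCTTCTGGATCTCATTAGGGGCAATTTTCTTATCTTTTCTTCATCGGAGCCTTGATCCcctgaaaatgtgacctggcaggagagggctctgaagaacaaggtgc

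The aligned stretch spanned 57 columns, of which 45 were identical (78.9%) and 2 held a gap. Among the 84 fragments of *Hdac4*, the *Twist2* contact gave the highest local alignment score with the *Twist1* fragment (51, against 30 for the next). In the other direction, the *Twist1* contact gave the highest score among the 303 fragments of *Hdac9* with the *Twist2* fragment (51, against 43 for the next). The alignment was made after the sequences were read, and no test was made of it. The E-boxes CATATG and CAGATG were in neither of the 300-base sequences, and the homeodomain core TAATTA was in the *Twist1* contact only. Counting both strands, 8.44%, 22.3% and 10.6% of all 143440 HindIII fragments of 300 or more bases on chromosomes 1, 2 and 12 held the 3 motifs in their first 300 bases.

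**Figure D4:**
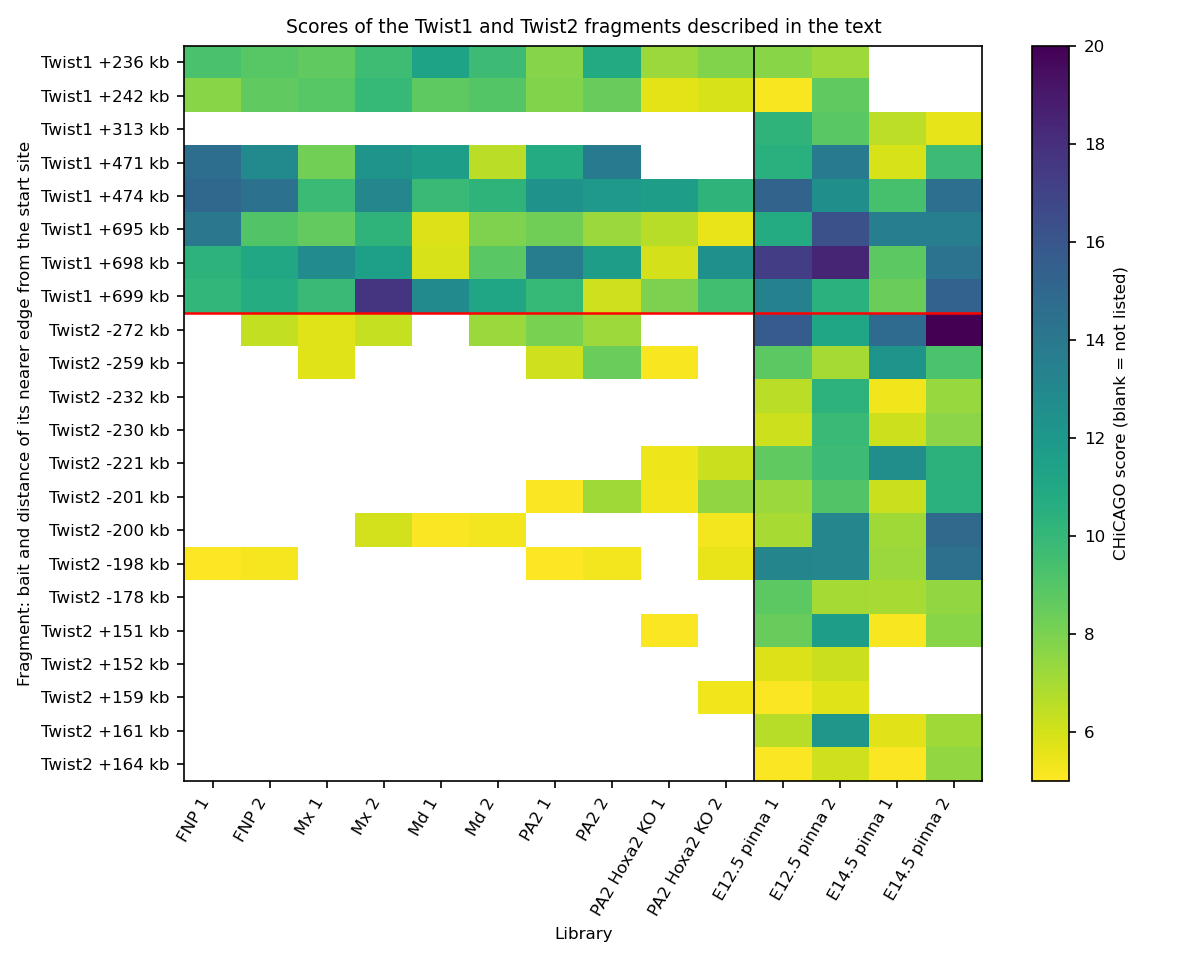
CHiCAGO score (colour, blank where not listed) of the *Twist1* and *Twist2* fragments named by the rule, in each of the 14 libraries (columns), with the distance from the start site in kb (rows). The *Twist1* contacts at 236 and 242 kb are blank in both E14.5 libraries, that at 471 kb in both knockout libraries, and the *Twist2* contacts are listed mainly in the 4 pinna libraries.

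*Prrx1*, on the minus strand, was listed almost wholly on its upstream side, with 82 of 87 fragments there, 81 of them within 1 Mb. The 5 downstream fragments lay 69.8 to 128 Mb away, and each was listed in 1 library alone, one of the 2 merged libraries (Md replicate 1 or E12.5 pinna replicate 2). Fragments listed in at least 7 libraries formed 4 stretches, at 23 to 44 kb, at 401 to 416 kb, at 462 to 467 kb, and at 512 to 603 kb from the start site. The last 2 lay in *Kifap3*, which encodes a kinesin-associated protein. The contact with the highest mean score (6.13), chr1:163914867-163916320, lay 601 kb away on a *Kifap3* exon and was listed in 11 libraries, with scores between 5.85 and 9.98. Closer to the gene, chr1:163350418-163357944 at 37 kb was listed in 13 libraries with scores between 5.23 and 8.84, and only Md replicate 1 was without it.

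The *Mettl11b* bait, chr1:163714727-163729943, which also holds the pseudogene *Gm2343*, was listed with *Prrx1* in 7 libraries. It scored 14.26 and 10.25 in the Mx replicates and 6.59 and 20.03 in Md, was unlisted in both FNP and both knockout libraries, and was listed in 1 of 2 libraries in PA2 (10.37), in the E12.5 pinna (7.40) and in the E14.5 pinna (14.33). Both Mx and both Md libraries thus held it, and no FNP library did, but the pair did not pass the threshold in any comparison.

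Within 1 Mb of *Prrx1*, over 691 fragments, the contact strength was 0.159 and 0.201 in FNP, 0.304 and 0.368 in Mx, 0.189 and 0.185 in Md, 0.232 and 0.173 in PA2, 0.107 and 0.101 in the knockout, 0.370 and 0.185 in E12.5 pinna, and 0.152 and 0.239 in E14.5 pinna. Mx lay above the other E10.5 conditions and the knockout below all others. PA2 differed from FNP, Mx and Md by -0.0319 (p = 0.75) and the pinna from wild-type E10.5 by 0.0101 (p = 0.808), both in two-sided exact permutation tests. The number of listed fragments was 11 and 12 in the knockout and 25 and 19 in wild-type PA2, a fall of 0.56 (SE 0.315) on the centred log2 scale that gave an adjusted p = 0.456 by limma. Of all baits, 0.775% passed in that comparison.

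At the level of pairs, 31 *Prrx1* fragments could be tested. In *Kifap3*, chr1:163852210-163855194 at 539 kb scored 7.70 and 5.04 in the Mx replicates and 5.49 and 8.59 in Md and was unlisted in all other libraries. FNP differed from Mx and Md by -2.58 (SE 0.399, limma adjusted p = 0.0309), where 0.306% of all pairs passed, 0.169% lower in FNP. The call was lost without any 1 of the FNP, knockout, E12.5 or E14.5 libraries, and the pair passed the filter through Mx and Md alone. The same pair was lower in the pinna than in wild-type E10.5 by -1.29 (limma adjusted p = 0.031), a call lost without any 1 of the pinna or knockout libraries. At 523 kb, chr1:163836704-163838169 was listed in both Mx replicates (7.95 and 5.57) and both E12.5 replicates (5.07 and 5.68) and nowhere else, and it was higher at E12.5 than in PA2 (adjusted p = 0.0242 by limma) and lower at E14.5 than at E12.5 (adjusted p = 0.0335 by limma). This pair passed the filter through Mx and E12.5 alone, and the E14.5 call was lost without any 1 of the knockout or E14.5 libraries. In the comparison of E12.5 pinna with PA2, 1.36% of all pairs passed, 0.647% higher, and 9 *Twist2* pairs and the *Twist1* pair at 313 kb passed as well. These 10 pairs were listed in the 4 pinna libraries alone, so they too could enter the test only through the group in which they were high. All 11 calls were lost when either PA2 or either knockout library was left out. Between PA2 and FNP, Mx and Md, 0 of the 107 pairs of the 4 genes passed by limma, against 0.227% of all pairs, and 10 had an unadjusted p under 0.05.

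The *Prrx1* promoter is shown, since it was the only one of the 3 on a bait that held a motif searched for. It is RefSeq's sequence on the minus strand of GRCm38.p6 (chr1:163313601-163313900), and capitals mark TAATTA, which 5.29% of 32851 RefSeq promoters of that length hold.
Prrx1 promoter: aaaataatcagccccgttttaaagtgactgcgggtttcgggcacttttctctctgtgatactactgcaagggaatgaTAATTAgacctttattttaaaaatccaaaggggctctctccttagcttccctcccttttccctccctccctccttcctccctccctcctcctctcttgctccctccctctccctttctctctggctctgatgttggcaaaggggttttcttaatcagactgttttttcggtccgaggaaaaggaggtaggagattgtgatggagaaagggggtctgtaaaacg

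None of the 3 motifs was in the *Twist1* or *Twist2* promoter. CATATG was in 3.91% and CAGATG in 17.2% of all promoters, counting both strands. The *Twist1* and *Twist2* promoters had a GC content of 66% and 64.7%, against 47.7% in that of *Prrx1* and a median of 52.7% over all promoters. RefSeq's *Prrx2* promoter lay outside the *Prrx2* bait.

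The *Prrx2* bait, which also holds the *Asb6* start site, had more contacts that every library listed than the other 3 baits. Of its 49 fragments, 9 were listed in all 14 libraries, as against 4 for *Twist1* and 0 for *Twist2* and *Prrx1*. They gathered in a stretch 360 to 449 kb upstream, over *Crat*, *Dolpp1*, *Ptpa* and *Ier5l*, and in one 67 to 108 kb downstream, over *Ptges*, which encodes a prostaglandin E synthase. *Ptpa* encodes an activator of protein phosphatase 2A and *Crat* carnitine acetyltransferase. In the upstream stretch, between 9 and 13 of the 15 fragments were listed in each library.

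The highest mean score of any member contact, 14.8, was that of the *Prrx2* bait with chr2:30429001-30444145, 391 kb upstream, on exons and a start site of *Ptpa*. It was 18.39 and 16.17 in FNP, 17.93 and 19.49 in Mx, 14.76 and 17.64 in Md, 13.12 and 10.10 in PA2, 16.10 and 8.76 in the knockout, 12.79 and 12.47 in E12.5 pinna, and 10.79 and 18.61 in E14.5 pinna. The FNP, Mx and Md libraries all lay above PA2, and the pinna libraries spread over both. Its neighbours chr2:30418994-30425047 (mean 14.2) and chr2:30425048-30429000 (mean 11.0) were listed in all libraries but knockout replicate 1. The *Ier5l* bait, chr2:30468822-30474890, was listed in all 14, with scores between 7.32 and 12.69.

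Of the 23 *Prrx2* pairs that could be tested, 0 passed in any of the 6 comparisons by limma, in which between 0.227% and 4.22% of all pairs passed, and 9 of the 138 tests had an unadjusted p under 0.05. Over all 510 fragments within 1 Mb, however, the contact strength was lower in the pinna. It was 0.413 and 0.415 in FNP, 0.370 and 0.520 in Mx, 0.325 and 0.373 in Md, 0.335 and 0.391 in PA2, 0.295 and 0.265 in the knockout, 0.300 and 0.344 in E12.5 pinna, and 0.305 and 0.311 in E14.5 pinna. The groups overlapped. The pinna mean of 0.315 ± 0.0201 (SD, n = 4) lay below that of wild-type E10.5, 0.393 ± 0.0608 (SD, n = 8), with a difference of -0.0778 (two-sided exact permutation test, p = 0.0283), a single test of 8 such region tests, not adjusted for their number. Without E12.5 pinna replicate 1, E14.5 pinna replicate 1 or E14.5 pinna replicate 2, p was 0.0788, 0.0727 and 0.0667 in the exact test, and for the number of listed fragments it was 0.341. PA2 differed from FNP, Mx and Md by -0.0395 (two-sided exact permutation test, p = 0.464).

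Partner genes and other mesenchyme genes were read at the level of baits. The bHLH list held the E proteins *Tcf3* and *Tcf12*, the Twist-related *Hand1* and *Hand2*, and *Id1* to *Id4*, which lack the basic region and block E proteins. Of its 8 baits, 1 was higher in the pinna than in wild-type E10.5 and 0 were lower, against 8.4% and 8.44% of all baits. This was *Tcf12*, by 0.89 (SE 0.214, limma adjusted p = 0.00963). The median of the list was -0.08, that of all baits -0.01. The mesenchyme list held *Snai1*, *Snai2*, *Zeb2*, *Cdh1*, *Pdgfra*, *Fgfr1*, *Fgfr2*, *Alx1*, *Alx4* and *Shox2*. Of the 12 baits of these 10 genes, 9 could be tested, and 3 were higher and 2 lower. *Pdgfra* (0.57, SE 0.166, limma adjusted p = 0.0263) and *Fgfr1*, with both of its baits (0.52 and 0.74), rose, while the third receptor gene, *Fgfr2*, had -0.28 (SE 0.163, limma adjusted p = 0.258). The homeobox genes *Alx4* (-1.04, SE 0.228, limma adjusted p = 0.00553) and *Shox2* (-1.08, SE 0.183, limma adjusted p = 0.000977) fell. The *Shox2* bait also holds *Rsrc1*. The median of the 9 tested baits was -0.21, and leaving a single bait in or out of so short a list can turn its sign. In the other 5 comparisons, 0 baits of either list passed by limma, where between 0% and 0.794% of all baits passed. An unadjusted p under 0.05 was seen in 7 of 40 tests of the bHLH list and 9 of 45 of the mesenchyme list. Over all 10199 baits, between 564 and 1480 had such a p in each of these comparisons.

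The baits whose number of listed fragments varied most like that of *Twist2* over the 14 libraries, among 4986 baits on other chromosomes with a mean of at least 10 fragments, were those of *Bmpr1b* (Pearson r = 0.961), *Lrig1* (r = 0.931) and *Fbxl7* (r = 0.924). Only 0.12% of these baits had an r above 0.9. *Bmpr1b*, a BMP receptor gene, was listed with between 29 and 55 fragments in the pinna and between 11 and 25 at E10.5. For the other members the highest r was 0.779 with the bait of *Fam118b* and *Rpusd4* (*Twist1*), 0.771 with that of *Morn1* and *Rer1* (*Prrx1*), and 0.847 with *Esyt1* (*Prrx2*). The libraries are shared between the baits, and these values are a description.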

How the data were processed

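The authors mapped PCHi-C reads to GRCm38/mm10 with HiCUP and called interactions with CHiCAGO, and the submitters' processing notes name bcl2fastq 2.17. Each deposited list holds the pairs of 1 library with their coordinates and score, none below 5, and no counts. Read depth is therefore unknown. The study's methods call the 2 replicates of a condition biologically independent, without saying which litters or pools they came from. Pairs were matched in either order, and unlisted pairs were given 0. All 102156 listed fragments on chromosomes 1, 2 and 12 matched a HindIII digest of the reference. Baits were named from GENCODE vM21.

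limma 3.58.1 (R 4.3.3; lmFit, eBayes with trend) was fitted with 7 condition means on asinh(score), for pairs in at least 4 libraries, and on log2(listed fragments + 1), for baits with a mean of at least 5, both with Benjamini-Hochberg adjustment, and was tested on simulated data. Region strengths were compared by exact permutation of single libraries, so that the 2 libraries of a condition count as separate units. Named fragments were the top 5 by mean score of each bait, the top 5 within *Hdac9* and *Hdac4*, and up to 5 pairs past the threshold per comparison. Others are examples from the pairs that passed or from the stretches, chosen after their values were seen. Members, lists and tests were chosen with earlier results of these data known. Local alignments (Biopython 1.88) scored 2 for a match, -3 for a mismatch, -7 for opening a gap and -2 for extending it. Replicate numbers did not pair the libraries: over 21 pairs of conditions, the correlation of their deviations was between 0.00207 and 0.0746. Alternatives were other filters, scales, score thresholds, equal numbers of top-scoring pairs, a replicate block, and libraries left out. The truncated enhancer list of the study was not used here. One gene of the mesenchyme list is not reported here, and the counts leave it out. Python 3.11.15 was used with pandas 2.3.3, NumPy 2.4.6 and matplotlib 3.10.9.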

Additional observations from a re-analysis of the deposited data

Results flagged for a closer look

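Among the 8 wild-type E10.5 libraries, the contact strength of *Prrx2* within 1 Mb was highest in Mx replicate 2, at 0.520, and its gap to the nearest library was 0.535 of the whole range. Of 22 sets of 4 to 10 samples examined in this way, 1 held such a value, and chance alone gives about 1 in 20.

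Contacts with other chromosomes took no part in the comparisons, and they were listed mainly in the merged libraries. In E12.5 pinna replicate 2, the *Twist1* bait was listed with 15 fragments on other chromosomes, *Twist2* with 10, *Prrx1* with 10 and *Prrx2* with 5. In Md replicate 1, the *Twist1* bait was listed with 5 and the *Prrx1* bait with 4. For the 4 baits together there were 40 such fragments in E12.5 pinna replicate 2, 14 in Md replicate 1, and between 0 and 2 in each of the other 12 libraries.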

How the results depend on the processing

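The scores limit these results: without read counts, a contact below the listing threshold and a contact missed for lack of reads cannot be told apart. Where a pair was unlisted in both libraries of a condition, that condition adds no spread to the fit. The SE and adjusted p of such a pair rest partly on the listing threshold. Counts of called pairs of the 4 genes were 0 for PA2 against FNP, Mx and Md, 1 for FNP against Mx and Md, 20 for pinna against E10.5, 11 for E12.5 pinna against PA2, 3 for E14.5 against E12.5 and 1 for knockout against wild-type PA2. In that order, they were 4, 2, 35, 19, 11 and 4 for pairs in at least 2 libraries, where 312692 pairs of the genome were tested instead of 161898 and 2.16%, 1.61%, 6.7%, 1.64%, 2.11% and 4.11% of them passed. For the pinna comparison, where 4.22% of all pairs passed, the share was between 3.57% and 6.76% over the alternatives that keep all libraries or leave out both merged ones. For pairs in at least 7 libraries, FNP, pinna and E12.5 pinna against PA2 had 0, 4 and 0 (0.101%, 4.89% and 0.598% of all pairs). With scores below 10 set to 0, all but the PA2 comparison changed, to 0, 1, 1, 0 and 0 (0.547%, 6.76%, 2.26%, 1.21% and 3.5% of all pairs). Without the trend in the variance, the PA2 and the knockout comparison had 3 each (0.848% and 2.31%, against 0.227% and 2.16% with it). With equal numbers of top-scoring pairs, the last 4 comparisons had 12, 3, 1 and 2 (4.01%, 1.3%, 0.834% and 1.68% of all pairs). Without both merged libraries, FNP, pinna, E12.5 pinna against PA2 and knockout had 0, 8, 2 and 4 pairs (0%, 3.57%, 1.75% and 4.82% of all pairs, against 0.306%, 4.22%, 1.36% and 2.16% with them). In the bait counts, where this alternative was chosen after seeing the data, *Twist2* between E12.5 pinna and PA2 was no longer called, leaving 0 baits. Other causes of these shifts were not tested.

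Leaving out 1 library gave 0 to 1, 0 to 1, 6 to 21, 0 to 12, 2 to 6 and 1 to 4 pairs. The pinna count was 8 without either E12.5 library, 6 without E14.5 replicate 1 and 10 without E14.5 replicate 2, where pairs listed in the 4 pinna libraries alone could not be tested. E12.5 pinna against PA2 had 0 to 2 without any 1 PA2, knockout or pinna library, and E14.5 against E12.5 had 5 without PA2 replicate 1 and 6 without E14.5 replicate 2. The knockout count rose to between 2 and 4 without any 1 FNP, Mx, PA2 or E14.5 library or knockout replicate 2. The FNP count was 0 without any 1 library other than FNP replicate 2 and the PA2 replicates, and the PA2 count was 1 without either PA2 library. The bait count between E12.5 pinna and PA2 was 0 to 1. In the replicate block, which the numbers do not justify as a pairing, the counts were 0, 0, 18, 9, 2 and 1, and *Twist2* kept both bait calls.

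The strength of *Twist2* with *Hdac4* in the pinna rested on scores below 10 (0.0703 without them), was 0.232 with equal numbers of top-scoring pairs, and was 0.337 to 0.462 with 1 library left out. For *Twist1* with *Hdac9*, PA2 differed by -0.106 to 0.0191, the latter without PA2 replicate 2, and the pinna by 0.0186 to 0.239. For *Prrx1*, PA2 differed by 0.00212 with equal numbers of top-scoring pairs, and the pinna by -0.000691 with scores below 10 set to 0, by -0.00819 with equal numbers, and by -0.0344 to 0.0383 with 1 library left out, the lowest without E12.5 replicate 1. For *Prrx2*, the pinna differed by -2.5 listed fragments, and in strength by -0.0876 to -0.0597 with 1 library left out, by -0.0941 with equal numbers and by -0.0973 without both merged libraries.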
